A study of Mus musculus with 10 samples.

Results

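Mutations in 5 cancer-related and chromatin genes other than beta-catenin were followed through exome sequencing of mouse proximal colon organoids. The genes were Stk11, Picalm, Kmt2d, Smarcc1 and Nutm1, and every listed mutation in them was taken, which gave 5 of the 163 mutations in the authors' deposited table, 1 in each gene. Stk11 is a tumour suppressor, and Kmt2d and Smarcc1 are chromatin genes. Picalm, an endocytosis gene, is neither by its known role, and Nutm1 is known mainly from fusions. The authors marked both as genes of the COSMIC cancer catalogue. The genes were chosen from these lists, with their consequences and cultures known, so all counts over them are descriptions and none was tested.

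The organoids came from the first part of the colon of male C57BL/6 mice, about 40 days old, that were heterozygous for a silent, Cre-activable BrafV600E allele. The BrafV600E protein is a kinase that signals through the MAPK pathway without its normal stimulus. In 3 cultures, numbered 1 to 3, lentiviral Cre had switched the allele on, and these spent 5 months in culture and then 3 weeks in Base medium, which lacks the stem-cell niche factors. The long-term controls had received the lentiviral backbone alone, the empty vector, so they carried the same allele still silent. They were number 1 after 12 months and number 3 after 14 months, each followed by 3 weeks in full medium, made with Wnt3a, R-Spondin, Noggin and EGF. The groups thus differ in oncogene, medium and months in culture at once, and these cannot be told apart. The other 5 cultures, 3 empty-vector cultures of 5 months and 2 of 2 months, have no list in the table and were not analysed here. The labels do not say whether the BrafV600E cultures came from separate mice, nor whether equal numbers mark the same mouse.

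Stk11 encodes LKB1, a kinase that activates AMPK and its relatives and so restrains growth through mTOR when energy is low. Its inherited loss in humans causes Peutz-Jeghers syndrome, with polyps of the gut. Kmt2d is a methyltransferase that places methyl groups on histone H3 lysine 4 at enhancers, and Smarcc1 encodes BAF155, a core scaffold subunit of the SWI/SNF complex, which moves nucleosomes. Picalm encodes an adaptor that helps clathrin coats form on membranes during endocytosis, and in human leukaemia it is a fusion partner. Nutm1 is normally expressed in testis, and in human NUT carcinoma it is part of a gene fusion. A missense mutation exchanges an amino acid. A frameshift changes every codon after it and usually leads to an early stop codon, and an mRNA with an early stop is often degraded.

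The listed mutations in the 5 genes fell in 2 BrafV600E cultures and 1 long-term culture. BrafV600E culture 1 had Picalm and Stk11, culture 2 had none, and culture 3 had Kmt2d and Nutm1. The empty-vector culture of 12 months had Smarcc1, and that of 14 months had none. The BrafV600E cultures thus held 2, 0 and 2 of these mutations (1.33 ± 1.15, SD, n = 3) and the long-term cultures held 1 and 0 (0.5 ± 0.707, SD, n = 2). The groups overlapped, and the difference of 0.833 mutations per culture was smaller than the SD of 1.15 among the BrafV600E cultures. It was 0.5 without BrafV600E culture 1 or culture 3, 1.5 without culture 2, 1.33 without the 12-month culture and 0.333 without the 14-month culture. As shares of all listed mutations these were 4 of 99 in the BrafV600E cultures (4.04%, exact Clopper-Pearson 95% interval 1.11 to 10.0%) and 1 of 64 in the long-term cultures (1.56%, exact 95% interval 0.0396 to 8.40%). The shares of single cultures were 6.45%, 0 and 4.35% with BrafV600E, against 4.17% and 0 in long-term cultures. The difference of 2.48 percentage points between the pooled shares was 1.38 without BrafV600E culture 1 and 4.04 without the 12-month culture, and it turned to -0.126 without the 14-month culture. A count of 0 of 22 in BrafV600E culture 2 leaves an exact 95% interval of 0 to 15.4%, and 0 of 40 in the 14-month culture leaves 0 to 8.81%. These intervals cover counting error only. They take no account of the choice of the genes from these same lists, nor of the spread between cultures. No difference between the groups is read from them.

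None of the 5 genes was listed in more than 1 culture. Each mutation was listed with its own p-value by the authors, and the table gives neither read depth nor the share of mutant reads. Whether 1 or both copies of a gene were hit, and in how many of the cells, is therefore not known for any of them. The p-values were read as ranks within the list of the same culture, because such values move with sequencing depth and with how many reads carry the mutation.

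**Figure D1:**
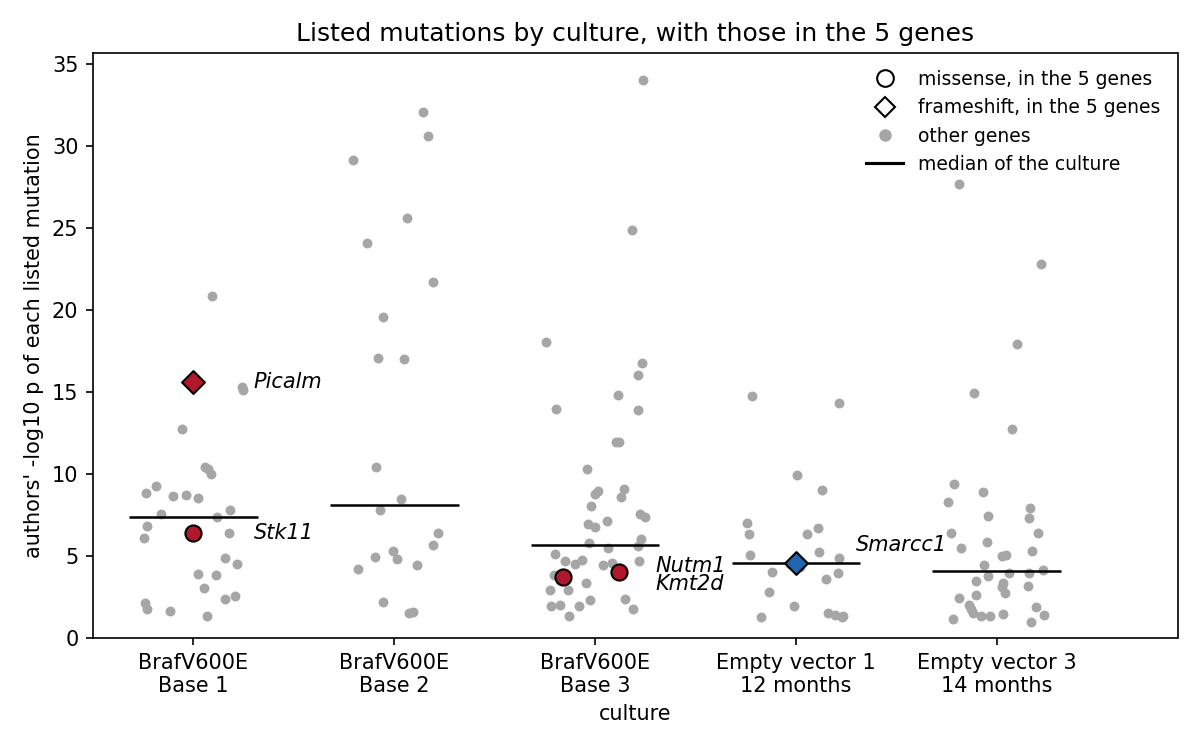
The authors' -log10 p of each of the 163 listed mutations (vertical axis) is plotted by culture, with the median of each culture as a line. Coloured symbols mark the mutations in the 5 genes, circles for missense and diamonds for frameshift, red in BrafV600E Base cultures and blue in the long-term empty-vector culture; Picalm, at 15.6, lies far above the median of its culture, Stk11, Kmt2d and Nutm1 lie below theirs, and Smarcc1 lies close to its own.

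The tumour suppressor Stk11 carried a missense mutation in BrafV600E culture 1. It was G80129977C, which gives the reference base, the position on chromosome 10 (GRCm38) and the listed base. Stk11 (gene ID 20869) spans chromosome 10 from 80115767 to 80130679 on the forward strand, so the site lay 14210 bases into the gene, at 95.3% of its span, and 702 bases before its annotated end. RefSeq gives 3 curated proteins for Stk11, and which of them contain the site was not assigned. The authors' p of 3.88e-07 ranked 19 of 31 in the culture, with 40.0% of the other mutations at a larger p. On the -log10 scale, 6.41 lay below the culture's median of 7.42. The exchange is of the C-to-G class, counted from the pyrimidine of the base pair, which held 2 of the 31 mutations of this culture and 16 of all 163.

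The same culture carried a frameshift in Picalm. The table gives reference base T and a loss of 1 G at chromosome 7 position 90182306. Picalm (gene ID 233489) spans 90130192 to 90209447 on the forward strand, and the listed position lay 52114 bases into it, at 65.8% of the span, with 27141 bases following. The listed reference base is T and not G. If it is the base at the listed position, the lost G lay beside that position and not on it. The table does not state this or the side. These distances, and those of the Smarcc1 deletion, are therefore uncertain by a base. The p of 2.42e-16 was the second smallest of the 31 in the culture. Its -log10 value was 15.6, against the culture's median of 7.42. Among the 5 genes, only Picalm and Stk11 had a p of 1e-05 or below. RefSeq lists 7 curated and 14 predicted proteins for Picalm. A reading frame shifted at this site would alter the sequence encoded after it in each isoform that contains the exon, but the exon was not assigned.

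The histone methyltransferase gene Kmt2d carried a missense mutation in BrafV600E culture 3, A98839513G on chromosome 15. Kmt2d (gene ID 381022) spans 98831669 to 98874077 on the reverse strand, so that the coding strand has a T-to-C change. Read in that direction, the site lay 34564 bases into the gene, at 81.5% of its span, and 7844 bases before its end. The p of 0.000182 ranked 36 of 46, with 22.2% of the other mutations at a larger p, and its -log10 value of 3.74 lay below the culture's median of 5.70. T-to-C changes made up 11 of the 46 mutations in this culture and 27 of 163 in all. RefSeq has 1 curated and 14 predicted proteins for Kmt2d.

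Nutm1 carried the other mutation of BrafV600E culture 3, the missense G112250056A on chromosome 2. Nutm1 (gene ID 213765) spans 112247948 to 112259291, with 1 curated protein. Its strand is not in the tables used, so its place is given along the chromosome, 2108 bases from the lower end of the gene and 9235 bases from the upper end. The p of 9.06e-05 ranked 33 of 46, with a -log10 value of 4.04 against the culture's median of 5.70. C-to-T changes, the class of this mutation, made up 9 of the 46 in the culture. The lists hold base substitutions and small insertions or deletions, so fusions, the form in which Nutm1 and Picalm are best known in cancer, were not covered.

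The SWI/SNF gene Smarcc1 carried its frameshift in the empty-vector culture of 12 months. Here the table gives reference base A and a loss of 1 G at chromosome 9 position 110196253. Smarcc1 (gene ID 20588) spans 110132024 to 110240178 on the forward strand, and the listed position lay 64229 bases into it, at 59.4% of the span, with 43925 bases following. RefSeq has 1 curated protein, so a shifted frame would affect the only curated form. The p of 2.48e-05 ranked 12 of 24 in the culture, and its -log10 value of 4.61 was close to the culture's median of 4.57. Smarcc1 has no COSMIC mark, and neither has any other of the 64 mutations in the long-term lists. That includes the call in the tumour suppressor Fat4, described below. An absent mark therefore does not show that a gene has no role in cancer. No Smarcc1 mutation was listed in BrafV600E culture 1, whose deposited name starts with the same BRAF1.

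**Figure D2:**
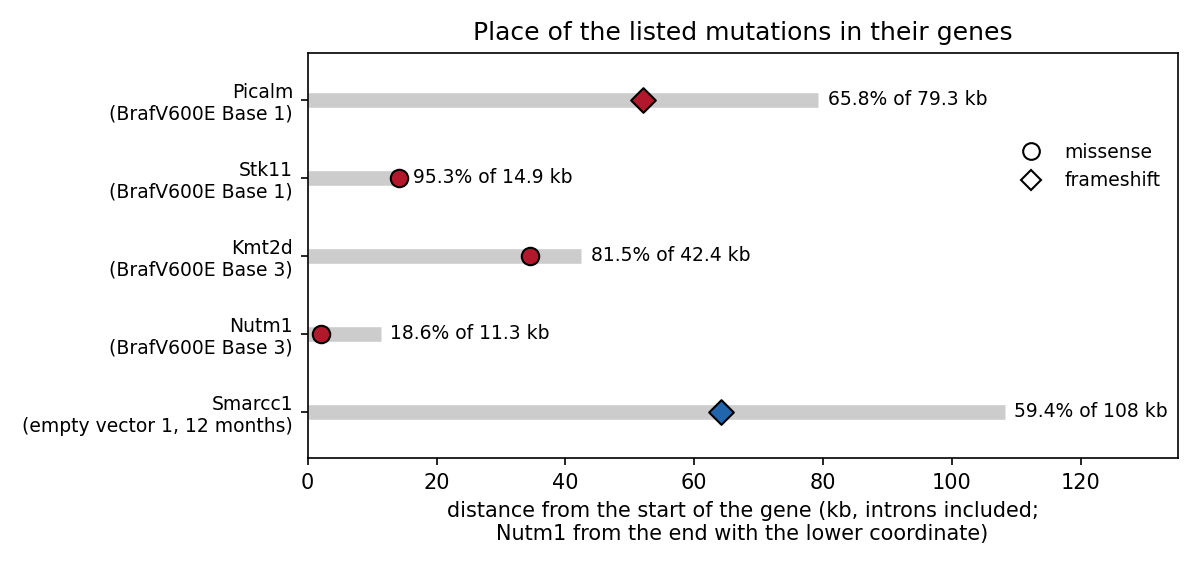
Each grey bar is the genomic span of a gene in kb, introns included, read from its start (for Nutm1 from the end with the lower coordinate), and the symbol marks the listed mutation. Circles are missense and diamonds frameshift, red in BrafV600E Base cultures and blue in the empty-vector culture of 12 months; the Stk11 and Kmt2d sites lie at 95.3% and 81.5% of the span, and the Picalm and Smarcc1 deletions at 65.8% and 59.4%.

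In their surroundings the sites were alike in some respects and not in others. No other RefSeq gene overlapped any of the 5 sites, and none of the sites of the 4 genes with a promoter window lay within it (250 bases before to 50 after the annotated start). Genomic spans ran widely, from 11344 bases for Nutm1, longer than 39.5% of protein-coding genes, to 108155 bases for Smarcc1, longer than 90.0%. Picalm spanned more than 85.5% of genes, Kmt2d more than 74.0% and Stk11 more than 46.0%. None of the mutations was part of a close cluster. The nearest listed mutation of the same culture on the same chromosome lay 768042 bases from Stk11, in Tmprss9, and 7854172 bases or more from Picalm, Kmt2d and Nutm1, while Smarcc1 had no other on its chromosome.

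By kind of change, 2 of the 5 mutations were truncating, both of them frameshifts, where 7.36% of all listed mutations were frameshifts or stop-gains and 4.91% were frameshifts. The COSMIC mark was on 4 of the 5, where 4.29% of all listed mutations carried it. Those 4 were in BrafV600E cultures, and so was every mark in the table (7 of 99 mutations, against 0 of 64 in the long-term cultures). The genes were chosen with both features known, so nothing is read from these shares. Of the 7 deletions in the lists, 2 removed a G, and these were the ones in Picalm and Smarcc1. The other 5 removed T (3), A (1) and C (1). A lost C is a lost G on the other strand, so the G does not set these 2 apart from the C deletion. That deletion was in the empty-vector culture of 12 months, as was the one in Smarcc1. The 3 missense mutations belonged to different classes, and none was a C-to-A change, the most frequent class with 48 of 163.

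**Figure D3:**
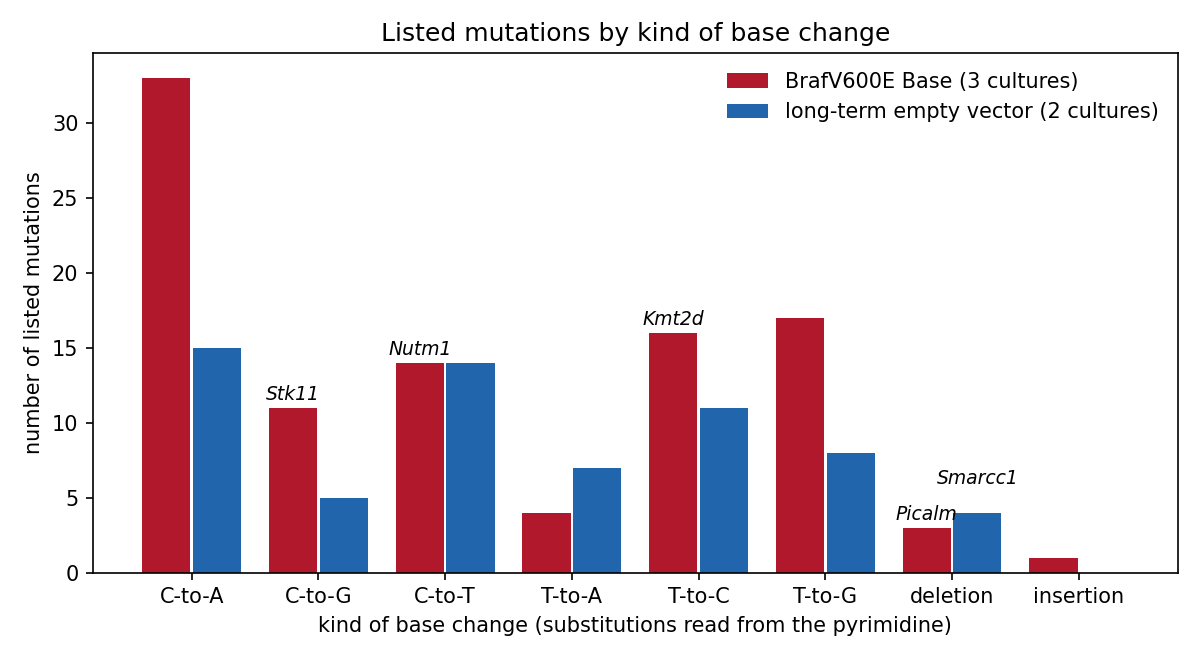
Bars give the number of listed mutations of each kind of base change, red for the 3 BrafV600E Base cultures together and blue for the 2 long-term empty-vector cultures together, with substitutions read from the pyrimidine of the base pair. Gene names stand above the bar that contains each mutation; the 3 missense mutations fall in bars of 11 (Stk11), 14 (Nutm1) and 16 (Kmt2d), and the deletions in bars of 3 (Picalm) and 4 (Smarcc1).

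The beta-catenin gene Ctnnb1 shared its cultures with 4 of the 5 mutations. In BrafV600E culture 1, the Ctnnb1 calls ranked 16 and 17 of 31 and Stk11 ranked 19, and in culture 3 Ctnnb1 ranked 35 of 46, between Nutm1 at 33 and Kmt2d at 36. Picalm, at rank 2, stood apart from that middle and lower part of the lists. Whether these mutations were in the same cells was not measured.

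By the authors' p, the nearest neighbour of each mutation within its own culture was a missense call. It was Tln2, an adaptor between integrins and actin, for Stk11 (3.84e-07, a difference of 0.0045 on the -log10 scale over 31 mutations), and Pkd1l2, a polycystin family gene, for Picalm (4.58e-16, a difference of 0.28). For Kmt2d it was Ctnnb1, which also has the COSMIC mark (0.000173, a difference of 0.022 over 46 mutations), and for Nutm1 the cholesterol exporter Abca1 (0.00014, a difference of 0.19). For Smarcc1 it was the zinc finger gene Zfp292 (2.9e-05, a difference of 0.068 over 24 mutations). Nearness in p says only that the calls had like support in the authors' test.

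Partner genes, other tumour suppressors and other chromatin regulators were looked up in 7 lists with 229 genes. Of the 224 that are not among the 5, 1 had a listed mutation, where 0.708% of 21900 protein-coding genes had one. That gene was Fat4, an atypical cadherin with tumour suppressor roles, missense in the 14-month empty-vector culture (chromosome 3, 39000150) at a p of 4.06e-07, rank 13 of 40. In the BrafV600E cultures, where 0.434% of genes were listed, Kmt2d was the only listed gene of the 22 in the histone H3 lysine 4 methyltransferase complexes and demethylases, and Kmt2c, Kmt2a and Kdm6a were not listed. Stk11 was the only listed gene of the 32 of LKB1, the AMPK family and mTOR control, and Picalm the only one of the 34 of clathrin-mediated endocytosis. Nutm1 was the only listed gene of the 11 of NUT and its partner proteins. In the long-term cultures, where 0.283% of genes were listed, Smarcc1 was the only listed gene of the 28 SWI/SNF subunits, without Arid1a or Smarca4. Each of these lists holds 1 of the 5 genes, whose mutation was known beforehand. At the shares of all genes given here, lists this short would mostly hold no other listed gene. Nothing about a pathway or complex is therefore read from them. Of 39 other tumour suppressors, 0 were listed in the BrafV600E cultures and 1, Fat4, in the long-term cultures, and Apc, Trp53 and Smad4 were in no list. Of 63 other chromatin regulators, 0 were listed in either group. With depth unknown, a gene that was not listed is not shown to be free of mutations.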

How the data were processed

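Genomic DNA of organoids was measured by exome sequencing, with TruSeq libraries read as paired ends on Illumina HiSeq instruments, per the labels' protocols. The submitters' processing notes name the builds mm10 and GRCm38. For the aligner, variant caller, filters and comparator culture, no source used here gives a name. The p-value of each mutation is the authors' own, as deposited, and its test is likewise not stated. The depth behind it is unknown. Deposited culture names were matched to the labels' descriptions.

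Symbols were matched to RefSeq (GRCm38.p6), by an older symbol for 4 mutations and without a match for 1, and 162 of 163 positions lay inside the named gene. At the 2 listed positions covered by a RefSeq promoter window, the listed reference base was the forward-strand base in 2 of 2. No exon annotation, coding sequence or genome was used, so exons, codons and amino acids were not assigned, and distances within genes include introns. Strands came from the promoter table. A deletion such as "-G" was read as the loss of that base.

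The genes and lists were chosen with earlier results of these data known. The genes named were the 5, every gene of the 7 lists with a mutation, and for each of the 5 the gene of the same culture nearest in -log10 p. Genes named as not listed, and Tmprss9, were chosen after their values were seen. Intervals are exact Clopper-Pearson (SciPy 1.17.1). Alternatives were filters on the authors' p at 0.001 and 1e-05, substitutions only, 1 call per gene and culture, COSMIC-marked genes only, leaving out each culture, and a replicate block on cultures 1 and 3. Placement and class functions were tested on simulated data.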

Additional observations from a re-analysis of the deposited data

How the results depend on the processing

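The difference in mutations of the 5 genes per culture (0.833) ran from 0.333 to 1.5 over left-out cultures. Substitutions only, a p of 1e-05 or below, COSMIC-marked genes only and leaving out the 12-month culture each remove Smarcc1, the only mutation of the 5 genes in a long-term culture, so they could not have turned it. The difference in their share of listed mutations (2.48 percentage points) turned to -0.126 when the 14-month empty-vector culture was left out, and ran from there to 4.04 over left-out cultures. With the replicate block, which pairs cultures 1 and 3 by number, the differences were 1.5 mutations and 3.32 points, with no test. The labels do not say that a number marks a shared mouse. Restricted to an authors' p of 1e-05 or below, Picalm and Stk11 were left, with a median -log10 p of 11.0 in place of 4.61, a median that mixes cultures of unlike support, and 1 truncating mutation in place of 2. With base substitutions only, 0 truncating mutations were left, by construction. Over left-out cultures, truncating mutations numbered 1 to 2 and the median -log10 p ran from 4.04 to 6.41. Unknown depth limits what an unlisted gene means, and 5 mutations in 5 cultures limit every comparison.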
